A study of Mus musculus with 6 samples.

Results

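The *Slc25* genes encode the mitochondrial carrier family, the proteins that move metabolites, nucleotides, cofactors and ions across the inner membrane of the mitochondrion. All members are nuclear genes, so each carrier has to be translated on cytosolic ribosomes and then, for most members, imported into the organelle. A carrier is built from repeated units of the same fold, and each unit opens with a short signature in which a proline is followed by an acidic and then a basic residue, whose charges form salt bridges that gate the transport path. Oocytes carry a large stock of mitochondria and rely on them for ATP, and fully grown oocytes no longer transcribe, so their carriers are made from stored mRNA.

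The members were the genes of the deposited expression table whose symbol is *Slc25a* followed by a number, which gave 44 of 25899 genes. The samples were 3 non-polysomal (NP) and 3 polysomal (P) libraries of oocytes from aged females (AF), by the labels CD1 mice of 58 weeks. The study's methods name the strain ICR and give a lower age, and the sources used here do not settle which age holds. Follicles had been primed with gonadotropin. Fully grown oocytes were stripped of their surrounding cells, cultured for 180 minutes until the nuclear envelope had broken down (NEBD) and given cycloheximide at 0.1 mg/ml for 10 minutes, which holds ribosomes on their mRNAs. A sample was a lysate of 200 pooled oocytes that was run on a sucrose gradient, and its fractions were combined into an NP part, with free and monosome-bound RNA, and a P part. All 6 libraries share age, strain, culture and cycloheximide. They differ in the gradient fraction, and no younger oocytes enter here. RNA was depleted of ribosomal RNA and amplified as whole transcriptome before sequencing, so a rare mRNA could be lost or copied unevenly in each library. The labels number the replicates but do not say whether they came from separate collections of oocytes, so p-values measure the spread between these samples, which may be technical. Each gradient sample gave an NP and a P part, but whether libraries with the same number are parts of the same sample is not stated in the labels or methods. The comparison was therefore made without the number as a block, and the value with that block stands beside a call that it changes.

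Values are FPKM, fragments counted per length of exon and per number of mapped reads of the library. Levels of genes can be compared only roughly, since the exon length of a member was 1 to 3.44 times that of its principal transcript in GENCODE M21. A value in a P library is a share of that library and not an amount per oocyte. In pooled oocytes, fewer oocytes with an mRNA and less of that mRNA per oocyte cannot be told apart. Depths recovered from the steps between low FPKM values ranged from 163822 reads in P replicate 1 to 18096676 in NP replicate 2, a 110.5-fold range, and 3 reads of a gene with 2 kb of exons were worth 9.16 FPKM in P replicate 1 but 0.0829 FPKM in NP replicate 2. A value of 0 in a P library was therefore a weak statement, and 0 in all libraries is not read as absence, since *Tomm70a* and *Tomm5*, parts of the general import machinery of mitochondria, were also listed at 0 in all 6. Of the oocyte markers all except *Figla*, which was at 0 in P replicates 1 and 3, were above 0 in every library, with sums of 10740 to 13497 FPKM in NP and 4919 to 13465 FPKM in P. Markers of granulosa and cumulus cells summed to 11.2 to 131 FPKM in NP and 1.54 to 16.5 FPKM in P, and 5 of 10 were at 0 in every library (*Fshr*, *Foxl2*, *Amh*, *Inhba* and *Amhr2*). Blood and immune markers stayed at or below 0.643 FPKM in sum, with 8 of 10 at 0 throughout.

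The signature of the family is shown for members that lead the results below, as the coding stretch of the first match in the principal transcript of GENCODE M21 (GRCm38). The 18 bases run 5′ to 3′ and encode proline, any residue, an acidic residue, a pair of any residues and a basic residue. Capitals mark the codons of the proline, the acidic and the basic residue.
*Slc25a1* (chr16:17927597-17927614, minus strand): CCGaccGAAtacgtgAAG
*Slc25a38* (chr9:120116571-120116588, plus strand): CCTttgGATctcctcAAA
*Slc25a26* (chr6:94507556-94507573, plus strand): CCTctgGACaccattAAG
*Slc25a28* (chr19:43674476-43674493, minus strand): CCGatcGACtgcgtcAAG
*Slc25a33* (chr4:149762495-149762512, minus strand): CCActaGAAgtcattAAG
*Slc25a30* (chr14:75775117-75775134, minus strand): CCAattGATttaactAAG
*Slc25a4* (chr8:46210824-46210841, minus strand): CCGatcGAGagggtcAAA
*Slc25a5* (chrX:36795812-36795829, plus strand): CCCatcGAGagggtcAAG
*Slc25a31* (chr3:40709112-40709129, plus strand): CCCatcGAGcgtgtgAAG
The signature occurred at least once in 43 of 44 members (97.7%), against 2913 of 8929 genes tested that had a coding sequence (32.6%). At least 3 copies, the number of repeats in a carrier, were found in 27 members (61.4%) and in 3.01% of those genes. The match describes the letters and was not used to choose members.

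Of the 44 members, 35 were above 0 in at least 1 library, 15 were above 0 in all 6, and 9 were listed at 0 throughout. The 9 were *Slc25a2*, *Slc25a21*, *Slc25a27*, *Slc25a29*, *Slc25a34*, *Slc25a36*, *Slc25a41*, *Slc25a43* and *Slc25a47*. Members above 0 numbered 26, 35 and 27 in NP replicates 1 to 3 and 18, 25 and 19 in P replicates 1 to 3, and the count was highest in the deepest library and lowest in the shallowest. The share of members above 0 (40.9% to 79.5%) exceeded the share of all genes above 0 (24.1% to 52.2%) in every library. These are not shares of like genes, since the table also lists antisense genes (such as *Gm13068*) and pseudogenes (such as *Gm5529*). In P, 18 members were listed at 0 in all 3 libraries. A further 8 members were above 0 somewhere but had a mean of at most 1 FPKM in both fractions, and were not tested. They were the glutamate carriers *Slc25a18* and *Slc25a22*, the ATP-Mg/phosphate carriers *Slc25a23* and *Slc25a24*, the coenzyme A carrier *Slc25a42*, *Slc25a45*, mitoferrin-1 (*Slc25a37*) and the outer membrane member *Slc25a46*. The highest value among these 8 was 1.93 FPKM, of *Slc25a22* in NP replicate 2. The heat map of values by library shows 34 of the 35 members.

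**Figure D1:**
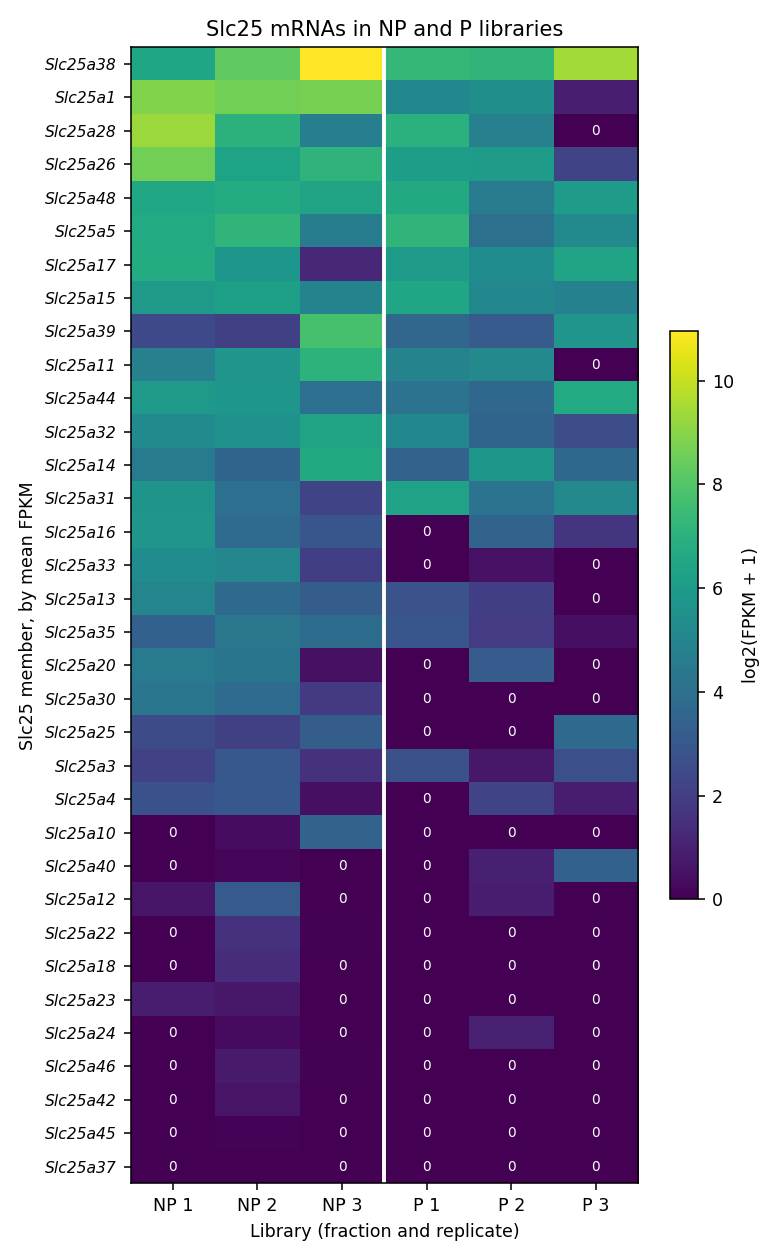
Level of 34 of the 35 *Slc25* members above 0 in at least 1 library, as log2(FPKM + 1) by colour, with members in rows by mean FPKM and the 6 libraries in columns (NP on the left, P on the right of the white line). A printed 0 marks a value listed as 0, and these stand mostly in the lower rows and in the P columns.

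The question put to the fractions is which carrier mRNAs were on polysomes. limma was run on log2(FPKM + 1), a scale on which ratios of low genes are understated, and its p-values were adjusted over the 10578 genes with a mean above 1 FPKM in either fraction. These held 27 members. *Slc25a1*, the citrate carrier, was lower in P and was the member past the threshold of 0.1, so 1 of 27 members (3.7%) was called beside 1.82% of all genes tested (192 genes). The called share of all genes was 1.8% for lower in P (190 genes, 1 member) and 0.0189% for higher in P (2 genes, 0 members). With the replicate number as a block, 4 members passed (*Slc25a1*, *Slc25a28*, *Slc25a30* and *Slc25a33*; 14.8% of those tested), beside 6.31% of all genes (668 genes). All 4 were lower in P, beside 6.27% of all genes, and 0 members were called higher, beside 0.0473%. Without the block, and under the median of ratios, quantile and common-sum scalings the genes called were 1, 2 and 5 lower in P and 2 higher in each. The P libraries lay wholly below the NP libraries for 7 members (25.9%), beside 23.2% of all genes, and wholly above them for 0 members, beside 0.633% of all genes. Values listed at 0 were counted as they stand. For *Slc25a33* and *Slc25a30*, 3 reads in P replicate 1 would have been worth more than the value in NP replicate 3. At an unadjusted p under 0.05, limma gave 5 members lower in P (18.5%, beside 15.5% of all genes) and 0 higher (beside 0.293%). At their median, the members had a log2 ratio (P over NP) of −1.05, with quartiles of −2.40 and −0.48, and the median over all genes tested was −1.03, a difference of −0.02. Under other pseudocounts, filters and scalings and with 1 library left out, that difference was −0.10 to −0.44. Of 27 members, 23 had a ratio below 0 (85.2%), beside 80.1% of all genes, and several of these turned to a ratio above 0 under each of 3 other scalings of the libraries (median of ratios, quantile and a common sum), as did *Slc25a4* under the quantile scaling. Among them were *Slc25a3*, *Slc25a5*, *Slc25a14*, *Slc25a15*, *Slc25a38*, *Slc25a44* and *Slc25a48*. The scalings moved the median of all genes from −1.03 to −0.37, −0.22 and −0.43 in that order.

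**Figure D2:**
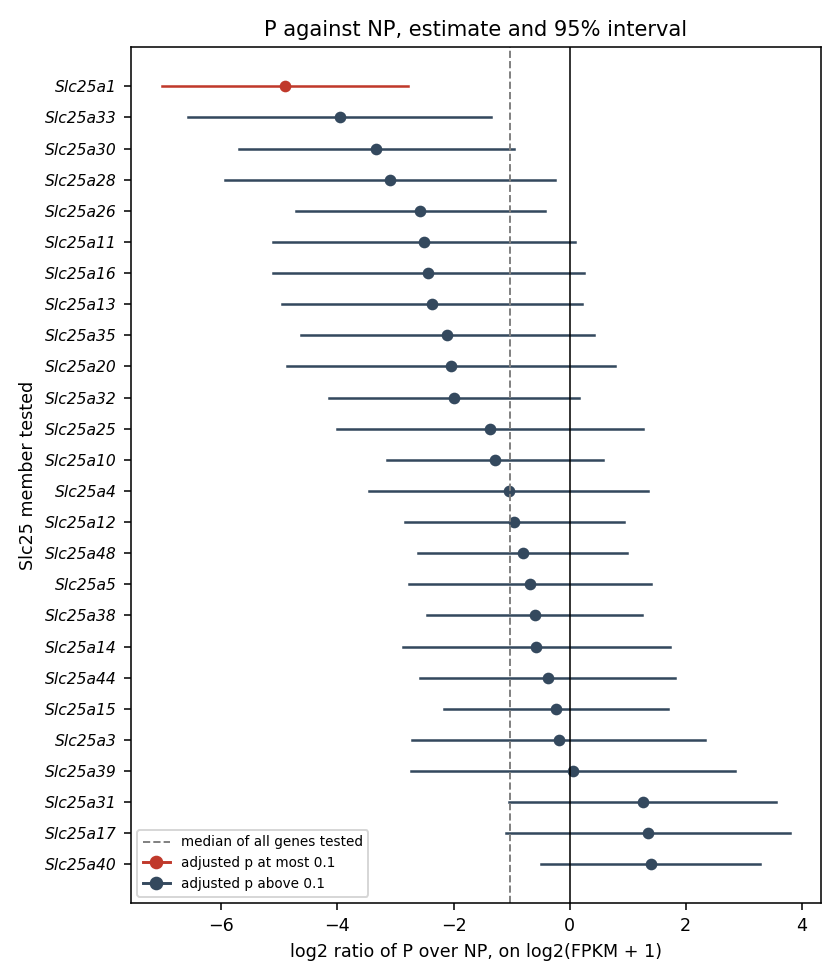
Fitted log2 ratio of P over NP on log2(FPKM + 1) with its 95% interval for 26 of the 27 *Slc25* members tested, ordered by the ratio, with *Slc25a1* in red as the member past the adjusted threshold of 0.1. The dashed line is the median of all genes tested (−1.03), and most intervals span it. The 8 members *Slc25a3*, *Slc25a4*, *Slc25a5*, *Slc25a14*, *Slc25a15*, *Slc25a38*, *Slc25a44* and *Slc25a48*, drawn below 0 here, lay above 0 under at least 1 other scaling of the libraries.

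Among the di- and tricarboxylate carriers, 3 of 4 members were tested and 1 was called, beside 1.82% of all genes. The ratio was below 0 for all 3, as it was for 80.1% of all genes. *Slc25a1* (chr16:17925211-17928219, minus strand) exports citrate from mitochondria, the source of cytosolic acetyl groups. Its level was 467, 395 and 410 FPKM in NP replicates 1 to 3 and 33.7, 42.7 and 0.890 FPKM in P replicates 1 to 3. The NP libraries lay close together, the P libraries all lay below them, and P replicate 3 was far below the other two. Means were 424 ± 37.8 FPKM in NP and 25.7 ± 22.0 FPKM in P (SD, n = 3 each), and the log2 ratio was −4.90 ± 1.02 (SE), with a 95% interval of −7.02 to −2.78 (limma, Benjamini-Hochberg adjusted p = 0.0269). Measured from the median gene of the table it was −3.87. The values in P rested on 11.9, 105 and 2.98 recovered reads, and those in NP on at least 1251 reads. Without P replicate 3 the log2 ratio was −3.45 (limma adjusted p = 0.0155), and without P replicate 1 or 2 it was −5.55 and −5.71 (limma adjusted p = 0.00587 and 0.0414, or 0.174 and 0.184 when genes were filtered on all 6 libraries). Without NP replicate 1, 2 or 3 it was −4.83, −4.95 and −4.92 but no longer passed (limma adjusted p = 0.341, 0.150 and 0.166). It missed the threshold also by the median of ratios, quantile and common-sum scalings, where it was −4.025, −3.56 and −4.02 (limma adjusted p = 0.427, 0.450 and 0.206). It was −4.90, as before, without the filter on low values and without limma's trend of the spread with the level, and did not pass (limma adjusted p = 0.306 and 0.120).

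By mean level *Slc25a1* ranked 256 of 25899 genes in NP and 2071 in P. Among the members it came after *Slc25a38* in NP by deposited FPKM, and without NP replicate 3 it led, at a mean of 431 FPKM against 375.5 FPKM for *Slc25a28* and 197.5 FPKM for *Slc25a38*. Exon length exceeded that of the principal transcript by a larger factor for *Slc25a28* than for *Slc25a1*. The place of *Slc25a1* relative to *Slc25a28* therefore holds for FPKM as deposited and may reverse per length of the principal transcript. The oxoglutarate carrier *Slc25a11* of the malate-aspartate shuttle had 26.3 to 136 FPKM in NP and 0 to 34.7 FPKM in P, and its log2 ratio was −2.51 ± 1.25 (SE; limma adjusted p = 0.332), or −0.84 without P replicate 3, the library at 0, and −3.42 without P replicate 2. For the dicarboxylate carrier *Slc25a10* all P libraries were at 0, and NP held 0 to 10.3 FPKM, 97.3% of it in replicate 3. The oxodicarboxylate carrier *Slc25a21* was at 0 throughout.

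The carriers of cofactors and nucleotides were 8 members, of which 6 were tested, 0 were called (beside 1.82% of all genes), and 5 had a ratio below 0 (beside 80.1%). *Slc25a26* (chr6:94500314-94604648, plus strand) brings S-adenosylmethionine, the methyl donor, into mitochondria. It had 391, 79.7 and 138 FPKM in NP and 66.9, 64.5 and 3.71 FPKM in P, so that the lowest NP library stood just above the highest P library. Means were 203 ± 165 and 45.0 ± 35.8 FPKM (SD, n = 3 each), and the log2 ratio was −2.57 ± 1.04 (SE; limma adjusted p = 0.240), or −1.30 without P replicate 3 and −3.22 without P replicate 1. *Slc25a32* (chr15:39094191-39112716, minus strand) carries folate and FAD. Its values were 35.7, 47.0 and 82.8 FPKM in NP and 33.2, 10.4 and 5.04 FPKM in P, again without overlap but with a narrow gap, and the log2 ratio was −1.99 ± 1.04 (SE; limma adjusted p = 0.350).

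*Slc25a33* (chr4:149744036-149774277, minus strand), a pyrimidine nucleotide carrier, was represented by 1 recovered read in all of P. NP libraries had 39.0, 32.7 and 3.10 FPKM, and P libraries 0, 0.464 and 0 FPKM, so that every P library was listed below every NP library. The 0 of P replicate 1 does not settle this, since 3 reads there would have been worth 9.7 FPKM, above NP replicate 3. Pooled over the P libraries, 1 read gave 0.186 FPKM, and the mean of NP was 134 times that, with a 95% interval of 24.1 to 5305 (exact Poisson, counting error only). The fitted log2 ratio was −3.96 ± 1.26 (SE; limma adjusted p = 0.142), short of the threshold, and with the replicate number as a block it passed (limma adjusted p = 0.0490). The antisense gene *Gm13068* overlaps 14.9% of its exons and had 27.7, 24.0 and 0 FPKM in NP and 0 in all of P. The strand setting of the counting is not given in the sources used here, so reads of the pair cannot be told apart in the shared 281 bases.

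*Slc25a17* (chr15:81318921-81360765, minus strand), which carries coenzyme A, FAD and NAD in the peroxisomal membrane, was among the 5 members with the highest mean in P. Its values were 105, 53.6 and 1.34 FPKM in NP and 65.9, 38.9 and 82.5 FPKM in P. The P libraries lay closer together than the NP libraries, among which replicate 3 stood apart. The log2 ratio of 1.35 ± 1.18 (SE; limma adjusted p = 0.537) became −0.33 without NP replicate 3. *Slc25a16* ranged from 6.54 to 51.0 FPKM in NP and from 0 to 10.2 FPKM in P. *Slc25a36*, the other pyrimidine nucleotide carrier, was listed at 0 in all 6 libraries, and *Gm13217* is 99.6% identical to it over 544 bases.

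The ADP/ATP carriers exchange cytosolic ADP for ATP made in the matrix. All 3 were tested and 0 were called, beside 1.82% of all genes. *Slc25a5* (chrX:36795651-36798807, plus strand), the form of proliferating cells, had 103, 143 and 23.3 FPKM in NP and 141, 15.4 and 36.5 FPKM in P, with overlapping fractions and a log2 ratio of −0.69 ± 1.003 (SE; limma adjusted p = 0.726) that turned positive under the 3 other scalings and without P replicate 2. *Slc25a31* (chr3:40708855-40725593, plus strand), known from germ cells, had 49.2, 14.9 and 3.75 FPKM in NP and 78.9, 17.3 and 34.6 FPKM in P. Its log2 ratio was 1.26 ± 1.11 (SE; limma adjusted p = 0.542), or 0.40 without NP replicate 3 and 2.10 without NP replicate 1, and the fractions overlapped. *Slc25a4* (chr8:46206797-46211284, minus strand), the form of heart and muscle, was far lower, at 5.84, 7.09 and 0.385 FPKM in NP and 0, 3.72 and 0.823 FPKM in P, where 3 reads in P replicate 1 would have been worth 7.78 FPKM. Its log2 ratio was −1.05 ± 1.16 (SE; limma adjusted p = 0.621), above 0 after quantile normalization.

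A share within one library does not move with that library's scaling, so the ADP/ATP carriers were also set against their own sum, a comparison chosen after the values had been seen. *Slc25a31* took 31.2%, 8.99% and 13.7% of the sum in NP and 35.9%, 47.4% and 48.1% in P, with every P library above every NP library. The means were 17.96 ± 11.7% and 43.8 ± 6.85% (SD, n = 3 each; two-sided exact permutation p = 0.1, the smallest that 3 against 3 can give). *Slc25a5* took 65.1%, 86.7% and 84.9% in NP and 64.1%, 42.4% and 50.8% in P (exact permutation p = 0.1), and *Slc25a4* at most 10.2% in any library (exact permutation p = 1). Pseudogene copies of *Slc25a5* share most of its sequence (*Gm5560*, 98.3% identity over 887 bases, and *Gm5529*, 96.8% over 900 bases), and *Gm5529* was listed at no more than 0.434 FPKM, so the level of *Slc25a5* is uncertain where reads were split.

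The iron carriers were mitoferrin-2, *Slc25a28* (chr19:43663822-43674881, minus strand), and mitoferrin-1, *Slc25a37*. *Slc25a28* had the highest level in any P library outside *Slc25a38* and *Slc25a5*, with 622, 129 and 25.5 FPKM in NP and 125, 26.6 and 0 FPKM in P. Replicate 1 was the highest library in both fractions, and the fractions overlapped. The log2 ratio was −3.09 ± 1.37 (SE; limma adjusted p = 0.284), and without P replicate 1 it was −4.62 (limma adjusted p = 0.0782, or 0.302 when genes were filtered on all 6 libraries). Without P replicate 3, the library at 0, it was −1.13 (limma adjusted p = 0.637). With the replicate number as a block, *Slc25a28* passed the threshold (limma adjusted p = 0.0705). *Slc25a37*, the form of erythroid cells, was above 0 in NP replicate 2 alone.

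The amino acid carriers held the member with the highest mean level in both fractions. *Slc25a38* (chr9:120110374-120124504, plus strand) brings glycine into mitochondria, where haem synthesis begins. It had 87.6, 307 and 1978 FPKM in NP and 156, 141 and 692 FPKM in P, with replicate 3 the highest library in each fraction. Its mean ranked 100 of 25899 genes in NP and 137 in P, but it fell from 791 to 197.5 FPKM without NP replicate 3 and from 330 to 148.4 FPKM without P replicate 3. The log2 ratio was −0.60 ± 0.89 (SE; limma adjusted p = 0.730), and it turned to values of 0.33 to 0.41 under the 3 other scalings and to 0.59 without NP replicate 3. In that NP library the granulosa marker *Cyp19a1* was also highest, at 104 FPKM against 7.15 and 22.5 FPKM in the other NP libraries, while it was at 0 in P replicate 3, where *Slc25a38* was again high. Of the other 4 granulosa and cumulus markers above 0, *Nr5a2* was also highest in NP replicate 3, at 26.9 FPKM against 3.37 and 6.32 FPKM, and had 1.18 FPKM in P replicate 3. *Inha*, *Kitl* and *Cyp11a1* were not highest in NP replicate 3, and none of these 3 was over 1.06 FPKM in any library. The part of other cells in the level was not tested.

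The ornithine carrier *Slc25a15* had 29.1 to 74.0 FPKM in NP and 26.9 to 86.7 FPKM in P, and the branched-chain amino acid carrier *Slc25a44* had 15.02 to 59.8 FPKM in NP and 11.997 to 102 FPKM in P. Neither passed the test, and both ratios changed sign with scaling. The ornithine carrier *Slc25a2* and the basic amino acid carrier *Slc25a29* were at 0 throughout. Of the aspartate/glutamate carriers, *Slc25a13* (chr6:6041218-6217118, minus strand), also called citrin, had 30.5, 12.6 and 8.29 FPKM in NP and 5.96, 3.14 and 0 FPKM in P. Its fractions did not overlap, on 3.71, 13.6 and 0 recovered reads in P, and the log2 ratio was −2.37 ± 1.25 (SE; limma adjusted p = 0.354). *Slc25a12*, the form of brain and muscle, was lower, at 0 to 7.65 FPKM in NP and 0 to 0.835 FPKM in P.

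Among the members related to uncoupling proteins, *Slc25a30* (chr14:75761999-75787037, minus strand) had 18.5, 13.4 and 2.66 FPKM in NP and 0 in all 3 P libraries, where 3 reads in P replicate 1 would have been worth 4.01 FPKM. It did not pass the test (limma adjusted p = 0.165), and with the replicate number as a block it did (limma adjusted p = 0.0808). *Slc25a14* overlapped between the fractions, with 10.4 to 100.3 FPKM in NP and 10.3 to 54.1 FPKM in P. *Slc25a27* was at 0 throughout, as were the uncoupling proteins *Ucp1*, *Ucp2* and *Ucp3*.

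The 2 glutathione carriers, each tested, were the group with no ratio below 0, where 80.1% of all genes had one. *Slc25a40* (chr5:8422850-8454790, plus strand) had 0, 0.119 and 0 FPKM in NP and 0, 0.946 and 9.53 FPKM in P, so 91.0% of its P sum came from replicate 3. Its log2 ratio was 1.398 ± 0.91 (SE; limma adjusted p = 0.442), the highest among the members in the main fit, and 0.43 to 2.12 with 1 library left out. *Gm5066* is 96.3% identical to *Slc25a40* over 724 bases. *Slc25a39* had 3.17 to 219 FPKM in NP, 96.7% of it in replicate 3, and 7.95 to 51.3 FPKM in P, and its log2 ratio of 0.06 fell below 0 with a pseudocount of 5 and without NP replicate 1, NP replicate 2 or P replicate 3.

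Members without a settled substrate included *Slc25a48* (chr13:56438355-56474239, plus strand), one of the 5 highest in each fraction. It had 91.9, 107 and 82.6 FPKM in NP and 99.5, 22.8 and 63.5 FPKM in P, and its log2 ratio was −0.81 ± 0.87 (SE; limma adjusted p = 0.611), positive under the 3 other scalings. *Slc25a35* (chr11:68968131-68974365, plus strand) had 9.67, 19.3 and 13.7 FPKM in NP and 6.64, 2.86 and 0.351 FPKM in P. The fractions did not overlap, on 4, 12 and 2 recovered reads in P, and the log2 ratio was −2.11 ± 1.22 (SE; limma adjusted p = 0.397). *Rangrf*, on the opposite strand, covers 31.3% of its exons and was itself at 3.00 to 11.5 FPKM in NP and 0 to 0.509 FPKM in P, so the part of *Rangrf* reads in the value cannot be told apart.

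The 3 remaining tested members were each the only one tested in their role. The carnitine/acylcarnitine carrier *Slc25a20*, which admits fatty acids for oxidation, had 0.416 to 22.2 FPKM in NP and was above 0 in P replicate 2 alone, at 7.86 FPKM. The ATP-Mg/phosphate carrier *Slc25a25* was above 0 in P replicate 3 alone, at 12.4 FPKM, and had 3.19 to 8.49 FPKM in NP. *Slc25a3*, which brings in the phosphate needed for ATP synthesis, was low in both fractions, at 1.93 to 6.84 FPKM in NP and 0.631 to 5.50 FPKM in P. None of the 3 passed the test. The plot of 9 members by library gives the spread behind the main ratios.

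**Figure D3:**
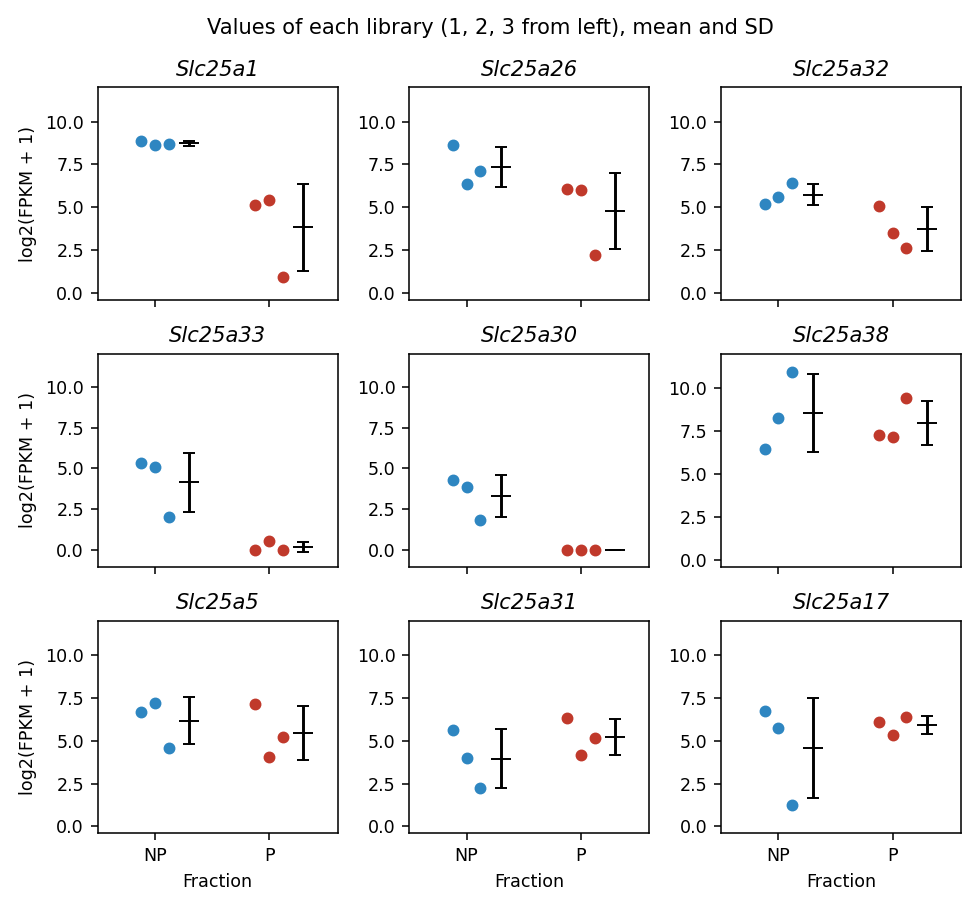
Values of 9 *Slc25* members in each library as log2(FPKM + 1), NP in blue and P in red with replicates 1, 2 and 3 from left, and the mean and SD of the log2 values (n = 3) as a black bar beside each group. *Slc25a1* shows the tightest NP group and no overlap with P, and *Slc25a38*, *Slc25a5*, *Slc25a31* and *Slc25a17* overlap between the fractions.

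Summed over all members, *Slc25* mRNA made up 0.384%, 0.267% and 0.560% of the FPKM sum in NP and 0.286%, 0.264% and 0.299% in P. Means were 0.403 ± 0.148% and 0.283 ± 0.0175% (SD, n = 3 each; exact permutation p = 0.3), so the difference was within the spread between NP libraries. As summed FPKM the family had 2349, 1688 and 3343 in NP and 978, 651 and 1177 in P, without overlap (2460 ± 833 and 935 ± 266, SD, n = 3 each; exact permutation p = 0.1, the smallest possible). The FPKM of all genes also summed to less in P (2.46e+05 to 3.94e+05) than in NP (5.97e+05 to 6.33e+05). A few members carried a large part of each library's family sum. The top 3 members took 50.1% to 78.0% in NP and 43.1% to 74.4% in P, and 7 to 12 members were enough to reach 90% of it. *Slc25a38* led in all 3 P libraries (15.9%, 21.7% and 58.8%) and in NP replicate 3 (59.2%), while *Slc25a28* led NP replicate 1 (26.5%) and *Slc25a1* led NP replicate 2 (23.4%).

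The share of *Slc25a1* was 19.9%, 23.4% and 12.3% in NP and 3.44%, 6.56% and 0.0756% in P, with no overlap. Its mean share went from 18.5 ± 5.70% to 3.36 ± 3.24% (SD, n = 3 each), a difference of −15.2 percentage points (exact permutation p = 0.1, the smallest possible here, and 0.6 after Benjamini-Hochberg adjustment over the 6 members with the highest mean share). For the other 5, *Slc25a38*, *Slc25a28*, *Slc25a26*, *Slc25a5* and *Slc25a48*, the exact permutation p lay between 0.5 and 0.8. The share of *Slc25a38* ranged from 3.73% to 59.2% within NP alone, and the plot of family make-up shows how far libraries of one fraction differed.

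**Figure D4:**
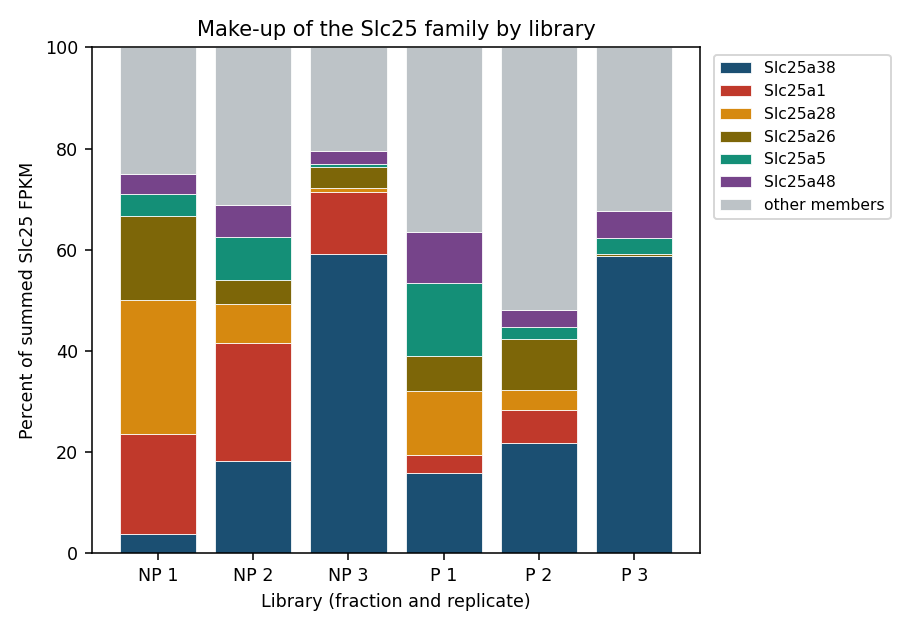
Percent of the summed *Slc25* FPKM of each library taken by the 6 members with the highest mean share, and by all other members together in grey, for NP and P replicates 1 to 3. *Slc25a1* (red) takes 12.3% to 23.4% in NP and at most 6.56% in P, and *Slc25a38* (dark blue) reaches 59.2% in NP replicate 3 and 58.8% in P replicate 3.

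Spearman's rho of levels across the 44 members was 0.818 to 0.939 between NP libraries, 0.713 to 0.85 between P libraries and 0.625 to 0.865 between an NP and a P library, as a description over genes measured in the same libraries, many of them at 0. P replicate 3 gave the lowest values in each of these comparisons that included it. Of the 23 tested members with a mean above 1 FPKM in P, 3 (13.0%) had over 90% of their P sum in 1 library, beside 23.1% of all such genes, and 15 (65.2%) were above 0 in all 3 P libraries, beside 57.7%.

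Stored oocyte mRNAs are often recruited to ribosomes through the cytoplasmic polyadenylation element (CPE), a U-rich motif near the 3′ end that is bound by CPEB proteins. The last 100 bases of the principal transcripts were searched on the sense strand for TTTTAT or TTTTAAT. A match was found in 8 of 43 members whose transcript is annotated past the stop codon (18.6%), 7 of 27 tested members (25.9%) and 1645 of 8407 tested genes (19.6%). In 4 of the 8 the element lay before the polyadenylation signal AATAAA or ATTAAA, and in 4 it lay after it. The windows of 3 members with the element before the signal are shown 5′ to 3′ with the element in capitals. From the start of the element, the signal starts 22 bases on in *Slc25a5* and 17 bases on in *Slc25a48*. In *Slc25a17* it starts 68 bases on, outside the window shown.
*Slc25a5* (chrX:36798749-36798778, plus strand): tTTTTATttcagtcactcctgataataaaa
*Slc25a48* (chr13:56474189-56474218, plus strand): gacTTTTATgtggaaatcataataaaaggc
*Slc25a17* (chr15:81318993-81319022, minus strand): tatttcgaattgTTTTATattacaaaaaaa
In *Slc25a32* the element was also before the signal, but the window lies past the 3′ end of the gene as the deposited table places it, the 1 window of 8 outside those coordinates. In *Slc25a11*, *Slc25a16*, *Slc25a34* and *Slc25a44* the element came after the signal, within 16 bases of the transcript end. *Slc25a1* had no match in this window, nor had *Slc25a38*. Of the 8 members with a match, the 7 tested had log2 ratios from −2.51 (*Slc25a11*) to 1.35 (*Slc25a17*), and none was called.

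Carriers reach the inner membrane through the pore of the outer membrane, chaperones of the space between the membranes and the TIM22 complex. Of 16 genes of this route, 13 were tested, 0 were called, beside 1.82% of all genes, and 9 had a ratio below 0 (80.1% of all genes did), with a median log2 ratio of −1.19 beside −1.03 over all genes. By mean level the highest in NP was *Timm8b*, a chaperone subunit, at 62.9, 183 and 598 FPKM in NP and 11.6, 76.5 and 213 FPKM in P. This rank rests on NP replicate 3. The highest mean in P was that of the receptor *Tomm22*, at 207, 181 and 80.5 FPKM in NP and 258, 136 and 158 FPKM in P. Of 20 other transporters of the inner membrane that were matched, 13 were tested, 0 were called and 10 had a ratio below 0 (median −1.10). By mean level the highest of this list in each fraction was *Mcub* (*Ccdc109b* in the table), a subunit of the calcium uniporter. It had 151, 74.5 and 74.3 FPKM in NP and 88.0, 67.1 and 40.6 FPKM in P, while *Abcb8* reached 163 FPKM in NP replicate 2.

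The voltage-dependent channels of the outer membrane pass the same metabolites before the carriers do. *Vdac1*, *Vdac2* and *Vdac3* were tested and 0 were called, beside 1.82% of all genes. All 3 ratios were below 0 (median −1.45), as for 80.1% of all genes. With the replicate number as a block 1 of them, *Vdac2*, was called, beside 6.31% of all genes. *Vdac3* was the highest, at 109, 198 and 31.2 FPKM in NP and 112, 57.3 and 12.3 FPKM in P. At an unadjusted p under 0.05, limma gave *Vdac2*, *Timm13* and *Mtch1* among these 3 lists, each lower in P. These are 3 of 29 genes tested (10.3%), beside 15.5% of all genes, and without the block none of them passed after Benjamini-Hochberg adjustment.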

How the data were processed

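Reads had been trimmed by the authors (Trim Galore 0.4.1), who checked them with FastQC 0.11.5, aligned them to GRCm38 with HISAT2 2.0.5 (versions per the submitters' processing notes) and deposited 1 FPKM value for each gene and library, computed in Seqmonk. Which annotation release, strand option and filters they used is not given in the sources used here. The table held 25965 rows, of which 66 repeated a symbol and were left out in favour of the row with the highest mean, and no member symbol was repeated. Columns with the authors' mean of each fraction were not used, and libraries of young females are not analysed here.

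Depth was recovered from the steps of low FPKM values with exon lengths of GENCODE M21, found for 22607 genes (87.3%) and all 44 members. Between 57.5% and 64.8% of low values were whole within 0.02 reads, too few for a count test. The procedure recovered 3 of 3 depths on simulated tables. Values of 0 were read against 3 reads per library, and intervals and floors cover counting error only.

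The fractions were compared by limma (3.58.1, R 4.3.3) applied to log2(FPKM + 1), letting the variance follow the level, two-sided, Benjamini-Hochberg adjusted over 10578 genes, threshold 0.1, without a replicate block. Data were simulated with a log2 change of 2, up or down, in 200 genes. At a noise SD of 0.3 (log2), 200 of 200 changed genes were recovered with 17 false calls among 8965 genes. At 1.22, which is the median residual SD observed here, 2 of 200 were recovered with 0 false calls among 10004 genes. A gene that was not called may therefore still have changed by that much. Shares were compared by exact permutation over libraries, which cannot go below p = 0.1 here.

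Members, roles and lists were chosen with earlier results of these data known. Values of every library are given for members past the threshold, the 5 highest in NP and in P, those without overlap between fractions, the ADP/ATP carriers and the 3 largest positive ratios, and the highest or called genes in related lists. Genes outside that rule were named to account for every member or for a value that touches one. The values of 1 tested member are not reported here, and it stays in all counts, sums and medians except those of single ratios under the alternatives. Near copies of members were found with BLAST 2.17.0. Alternatives covered the pseudocount, filter, scaling, trend, threshold, block and each library left out.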

Additional observations from a re-analysis of the deposited data

How the results depend on the processing

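Over 26 members and 22 alternatives, 500 of 564 ratios kept their direction and their side of the threshold, 47 changed sign, 13 fell short of the threshold and 4 came past it, and the causes were not tested except where stated. This tally does not measure stability. The threshold, filter, trend and block leave a ratio as it was, and ratios with 1 library left out were counted under both filters. Members other than *Slc25a1* were not past the threshold to begin with. The genes past the threshold (192) were 65 at a threshold of 0.05, 69 with a pseudocount of 0.1, 15 without the trend, 7 after scaling to a common sum, 3 by median of ratios, 4 by quantiles, and 0 without the filter (limma, 1759 genes at an unadjusted p under 0.05), where more genes were tested. Leaving out 1 library gave 1 (without NP replicate 3) to 331 genes (without P replicate 3). When genes were filtered on all 6 libraries as before, an alternative added after seeing the data, it gave 0 except 55 without P replicate 3. The 1 member past the threshold became 0 without the filter, without the trend and under each of the 3 scalings, and 0 to 2 with 1 library left out (0 without any NP library, 2 without P replicate 1). With the replicate number as a block, 668 genes passed (663 lower and 5 higher in P), with 4 members (*Slc25a1*, *Slc25a28*, *Slc25a30* and *Slc25a33*, limma adjusted p of 0.0705, 0.0808 and 0.0490 for the last 3) and 1 outer membrane channel (*Vdac2*), and this changed no other call among the members. Deviations from the group means correlated at 0.0634, 0.0991 and 0.116 for libraries of the same number and at −0.0886 to 0.0208 for others, each library correlating best with its own number. Since each gradient sample gave both parts, the pairing by number is plausible, but no source used here states it and not every correlation was over 0.1, so it was kept as an alternative.

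The median log2 ratio of the members (−1.05) was −1.96 and −0.62 with pseudocounts of 0.1 and 5, −1.68 for means above 5, −0.69 without the filter, −0.55 by median of ratios, −0.34 by quantiles and −0.62 by a common sum. Relative to all genes the median was −0.020, as it was without the trend and with the block, and −0.10 to −0.44 under the other pseudocounts, filters and scalings and with 1 library left out. With 1 library left out the median itself lay between −1.52 (without NP replicate 3) and −1.21 (without P replicate 3), and with genes filtered on all 6 libraries it was −1.33, −1.27, −1.46, −1.26, −1.30 and −1.13 without NP replicates 1 to 3 and P replicates 1 to 3. By those 3 scalings, in that order, the ratio changed sign for *Slc25a38* (0.39, 0.41 and 0.33), *Slc25a48* (0.17, 0.094 and 0.11), *Slc25a5* (0.30, 0.15 and 0.22), *Slc25a15* (0.75, 0.79 and 0.69), *Slc25a44* (0.59, 0.38 and 0.51), *Slc25a14* (0.35, 0.84 and 0.32) and *Slc25a3* (0.56, 1.05 and 0.45), and for *Slc25a4* under quantile scaling (0.087). *Slc25a39* turned to −0.18 with a pseudocount of 5. With 1 library left out, ratios spanned 0 for *Slc25a38* (−1.65 to 0.59), *Slc25a5* (−1.52 to 0.031), *Slc25a17* (−0.33 to 2.43), *Slc25a15* (−0.73 to 0.096, with 0.043 without NP replicate 2), *Slc25a39* (−0.95 to 1.91, with −0.77 without NP replicate 1 and −0.71 without P replicate 3), *Slc25a44* (−1.30 to 0.19), *Slc25a14* (−1.30 to 0.30) and *Slc25a3* (−0.53 to 0.47). Ranges that did not span 0 included −3.42 to −0.84 for *Slc25a11*, −3.22 to −1.30 for *Slc25a26*, −4.62 to −1.13 for *Slc25a28*, −2.67 to −1.42 for *Slc25a32*, −2.96 to −1.56 for *Slc25a13*, −2.69 to −1.44 for *Slc25a35*, −5.02 to −3.37 for *Slc25a33*, −4.07 to −2.86 for *Slc25a30*, −1.86 to −0.53 for *Slc25a4*, −1.26 to −0.23 for *Slc25a48*, 0.40 to 2.10 for *Slc25a31* and 0.43 to 2.12 for *Slc25a40*. The ratio of *Slc25a1* stayed below 0 under every alternative run (−5.71 to −3.45 with 1 library left out, limma adjusted p of 0.00587 to 0.450 over all). Its share difference was −20.1 percentage points among members above 0 in every library. The depth of P replicate 1 limits every value at 0 there.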

Other observations

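Genes of the family that the table lists under older names, and that the symbol rule therefore left out, were looked up by their RefSeq synonyms. *Mcart1*, now *Slc25a51* (chr4:45395923-45408766, GRCm38), the carrier that brings NAD into mitochondria, had 32.0, 70.4 and 12.7 FPKM in NP replicates 1 to 3 and 6.65, 10.2 and 7.15 FPKM in P replicates 1 to 3. Every P library lay below every NP library, and the log2 ratio was −1.85 ± 1.09 (SE; limma with Benjamini-Hochberg adjustment, adjusted p = 0.406). *Mcart6*, now *Slc25a53*, was at most 1.10 FPKM in any library, and *4930443G12Rik*, now *Slc25a54*, was listed at 0 throughout.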
